A study of Arabidopsis thaliana with 3 samples.

Results

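The acidic stalk of the large cytosolic ribosomal subunit was followed in rosette leaves of Arabidopsis thaliana through 10 genes for its proteins. They were 3 for P0 (AT2G40010, AT3G09200 and AT3G11250), 3 for P1 (AT1G01100, AT4G00810 and AT5G47700) and 4 for P2 (AT2G27720, AT2G27710, AT3G28500 and AT3G44590). Further acidic stalk genes, for P3 and at other P1 and P2 loci, are taken as a separate list below. The 10 genes were found on the array by locus, through the Entrez gene that each feature is paired with. All 10 were represented, by 13 of the 28785 features. AT1G01100, AT4G00810 and AT2G27710 had a pair of features each, called A and B here in the order of their identifiers. Each of the 3 arrays held total RNA of rosette leaves from plants aged 2 weeks in the Col-0 background. Wild-type plants gave 1 array, and plants expressing 35S::AtMYB23SRDX gave the other arrays, 1 for line 41 and 1 for line 45. AtMYB23SRDX joins MYB23, a MYB factor known from trichome formation, to SRDX, a short domain that makes a transcription factor repress its targets. The 35S promoter drives it in most tissues of the plant, not only where MYB23 is normally active. No feature was named MYB23 in the tables used here, so the transgene could not be checked.

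The stalk is a flexible arm of the ribosome's factor-binding site. P0 anchors it to the ribosomal RNA, pairs of the small acidic proteins P1 and P2 bind to P0, and all of them share an acidic C-terminal tail that recruits the GTPases of translation, such as the elongation factors eEF1A and eEF2. Plants have a further type, P3, beside P1 and P2, and each protein is encoded by several closely related genes.

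The deposited values are on a log2 scale as read from their range, and 1 unit is then a doubling. The array medians lay between 5.89 and 5.96, but the 99th percentile reached 10.63 and 10.54 in lines 41 and 45 and 9.62 on the wild-type array, whose bright end was thus lower. Of 15 green-leaf marker genes 3 were named on the array, RCA, LHCB4.1 and LHCB4.2, and their 6 features were bright in every array (8.64 to 14.13). All 6 were higher in the lines by limma, with log2 changes of 2.04 to 3.62, where 14.8% of all tested features were called higher. They come from only 3 genes, and the called stalk features moved in the same direction. Whether the lower bright end of the wild-type array enters these changes was not tested. Of 12 markers of dividing cells and the shoot apex 1 was named, CLV3, which was too dim to test. It stood at 5.79 in wild type, against 5.46 in line 41 and 5.45 in line 45. Of 8 root markers 2 were named. EXPA7 was too dim to test, at 5.37 in wild type, against 4.96 in line 41 and 5.12 in line 45. PYK10, a beta-glucosidase of roots and seedlings, went the other way. It stood at 5.80 in wild type, against 6.69 in line 41 and 6.69 in line 45 (adjusted p = 0.0195 by limma). None of the 6 flower and 3 seed markers was named here, and of 5 trichome genes only TRY was, which did not pass the test (adjusted p = 0.171). The part of leaf make-up in the stalk results was not tested, and in whole leaves fewer cells of a type and less RNA per cell cannot be told apart.

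Transcripts for P0, P1 and P2 were higher in the plants with the repressor than in wild type, but not from every gene of a class. Of the 13 features, 10 passed the filter on dim features, and 7 of these 10 were higher in the lines (limma over all tested features, Benjamini-Hochberg adjusted p under 0.05), while 0 were lower. The 7 belong to 5 genes: AT3G09200 for P0, AT1G01100 and AT5G47700 for P1, and the adjacent genes AT2G27710 and AT2G27720 for P2. Over all 17271 tested features limma called 14.8% higher and 7.10% lower. The split moved with the scaling, from 2555 higher and 1227 lower as deposited to 2713 and 2693 after quantile normalization. The median log2 change of all 13 stalk features, dim ones included, was 1.53, and that of all 28785 features was -0.058. Both lines lay above the wild-type array for 10 of the 13 features, against 39.5% of all tested features. The sets are not quite alike, since the 13 include 3 dim features that were not tested. Of the 10 that passed the filter, AT2G40010 and feature A of AT1G01100 were below its level in wild type and passed it through the lines alone, so their own values admitted them to the test. Without them 6 of 8 tested features were higher, from the same 5 genes. With 1 wild-type array the only spread available is that between the lines. For each feature limma draws this spread toward that of all tested features (1 residual degree of freedom against a median of 6.68 prior ones). The SE of a feature thus rests mostly on the other features, not on the distance between its own lines. Nothing in the labels says whether each sample came from separate batches of plants. Anything particular to the wild-type array enters every change below.

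**Figure D1:**
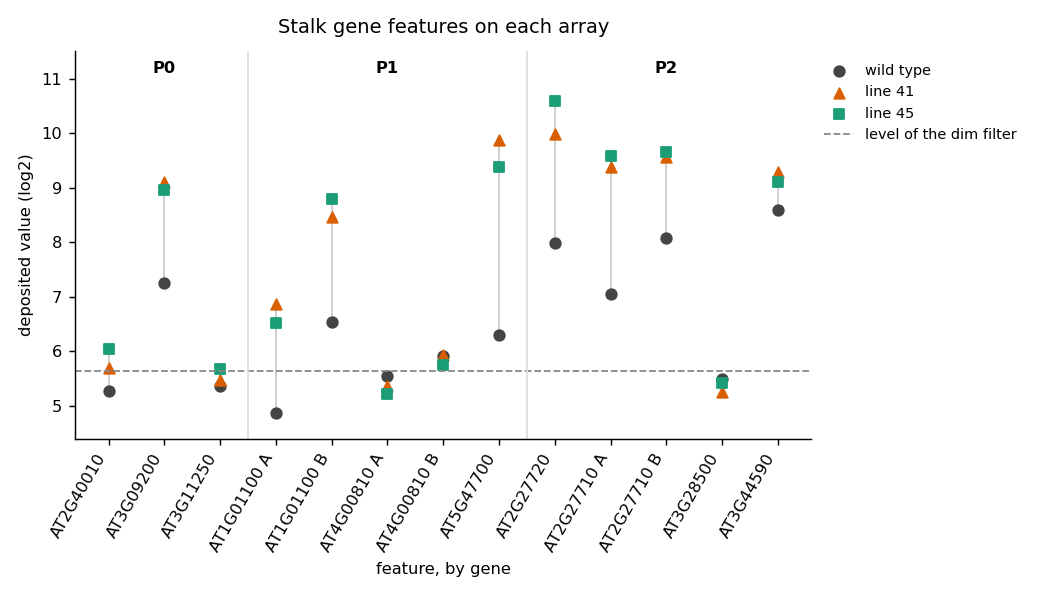
The deposited log2 value (vertical axis) of each of the 13 stalk features (horizontal axis, grouped by P0, P1 and P2) is drawn for wild type (circles), line 41 (triangles) and line 45 (squares), with 1 array each and no error bars; A and B are features of the same gene. For 7 features both lines stand more than 1 unit above wild type, and the dashed line marks the dim filter's level of 5.64.

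P0 is the scaffold on which the stalk is built, and with the values as deposited its transcript was higher from 1 of its 3 genes. AT3G09200 stood at 7.26 in wild type, against 9.10 in line 41 and 8.95 in line 45. The lines were close to each other and well above wild type, and the gene rose 3.40-fold (log2 change 1.77 ± 0.23 SE by limma, n = 2 lines and 1 wild-type array, adjusted p = 0.00169). AT2G40010 stood at 5.28, 5.70 and 6.05 in the same order. Both lines were again above wild type, but as deposited the change did not pass (adjusted p = 0.0884 by limma), and the wild-type value was under the dim filter. The change passed under 3 of the 4 other scalings tried (adjusted p of 0.0198 to 0.0310 by limma). With arrays centred on the 75th percentile it did not (adjusted p = 0.101). As deposited, the mean of the lines for AT2G40010 was 1.18-fold above the filter's level of 5.64. AT3G11250 stood at 5.37, 5.48 and 5.68. It was too dim to be tested, and line 41 lay 0.11 and line 45 0.31 above wild type. Of the P0 genes, AT3G09200 was thus the only one with a signal above the dim end in all 3 arrays.

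P1 is one of the small acidic proteins that attach to P0 in pairs with P2. AT5G47700 had the greatest change of all stalk genes. It stood at 6.31 in wild type, against 9.87 in line 41 and 9.38 in line 45. Both lines were more than 3 units above wild type while 0.50 apart, and the gene rose 9.97-fold (log2 change 3.32 ± 0.27 SE by limma, adjusted p = 0.000366). This was rank 58 of the changes of the 17271 tested features, counted from the greatest rise. Taken singly, it was 11.8-fold above wild type in line 41 and 8.39-fold in line 45.

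AT1G01100, another P1 gene, was higher by both of its features. The brighter one, B, stood at 6.54 in wild type, against 8.46 in line 41 and 8.79 in line 45, and rose 4.23-fold (log2 change 2.08 ± 0.24, adjusted p = 0.00114 by limma). Feature A stood at 4.87, 6.86 and 6.52. Its wild-type value was under the dim filter's level, and the mean of the lines was 2.07-fold above that level of 5.64. As measured, the log2 change was 1.83 ± 0.22 (adjusted p = 0.00132 by limma). The features put the lines in opposite order, A with line 41 and B with line 45 on top, each by 0.34, so they disagree on which line holds more of this transcript. The third P1 gene, AT4G00810, gave no such rise. Its feature B stood at 5.92, 5.93 and 5.75 (log2 change -0.080 ± 0.20, adjusted p = 0.818), and its feature A, which was not tested, stood at 5.55, 5.36 and 5.22. Line 41 lay 0.011 above wild type and line 45 0.17 below it in feature B, and both lay below wild type in feature A.

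P2 is the partner of P1 in each acidic pair. AT2G27710 and AT2G27720 lie next to each other on chromosome 2 and both were higher in the lines. AT2G27720 stood at 7.996 in wild type, against 9.99 in line 41 and 10.59 in line 45. This was the greatest distance between the lines among the 13 stalk features, 0.60 in favour of line 45. The gene rose 4.90-fold (log2 change 2.29 ± 0.30 SE by limma, adjusted p = 0.00170). Feature A of AT2G27710 stood at 7.06, 9.37 and 9.58 and rose 5.34-fold (log2 change 2.42 ± 0.23, adjusted p = 0.000543). Feature B stood at 8.08, 9.56 and 9.65 and rose 2.89-fold (log2 change 1.53 ± 0.23, adjusted p = 0.00321). The features of this gene agreed in direction and in the order of the lines, but differed by 0.88 in the size of the change.

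AT3G44590, the third P2 gene, was bright already in wild type, at 8.59, and stood at 9.29 in line 41 and 9.11 in line 45. Both lines were above wild type by less than 1 unit, and the log2 change of 0.60 ± 0.23 did not pass (adjusted p = 0.111 by limma). The change was 0.14 after quantile normalization. AT3G28500 stood at 5.50, 5.25 and 5.43, under the dim filter, with both lines below wild type (-0.25 in line 41 and -0.076 in line 45). Each class therefore held at least 1 gene that passed the test upward and at least 1 that did not pass or was too dim to test. Whether genes of a class differ from each other in their change was not tested.

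**Figure D2:**
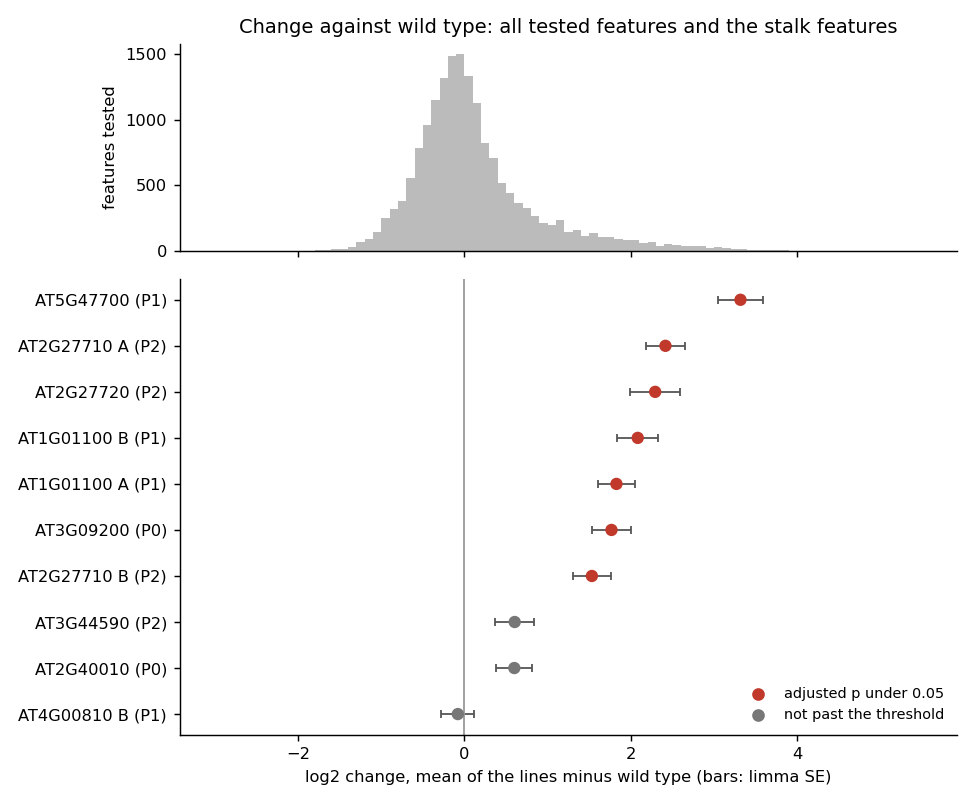
The lower panel gives the log2 change (horizontal axis, mean of 2 lines minus 1 wild-type array) of the 10 tested stalk features with limma's standard error as bars, and the upper panel the number of all 17271 tested features in bins of the same axis. The 7 features past the adjusted p threshold lie between 1.53 and 3.32, in the right tail of the distribution, and the other 3 between -0.080 and 0.60.

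Close copies of a gene can share signal on an array, and the stalk genes within a class are such copies. Which part of each gene the features match is not given in the sources used here. A signal given for one gene cannot be told apart from transcript of a close copy in its class.

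The immediate neighbours of the stalk genes in the annotation were looked at too. Apart from the adjacent P2 pair, the genes directly before and after the 10 loci numbered 18, of which 10 were named on the array, with 6 features past the dim filter. Of these 6, limma called 0 in either direction, which at 14.8% higher and 7.10% lower over all features is too few features to read anything from. AT2G27730, which follows the P2 pair on the chromosome, stood at 10.001 in wild type, against 10.13 in line 41 and 10.11 in line 45 (log2 change 0.11, adjusted p = 0.774). Next to AT5G47700, the genes AT5G47690 and AT5G47710 had log2 changes of 0.091 (adjusted p = 0.800) and -0.33 (adjusted p = 0.311). These 3 neighbours were picked for mention after their values were seen. The 10 loci are spread over chromosomes 1 to 5.

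Line 41 and line 45 were also set against each other. With 1 array per line there is no test of their difference. Of the 13 features, 10 of them tested, 0 were 2-fold apart between the lines, against 0.504% of all tested features. At that share a count of 0 shows nothing particular to the stalk. Line 41 was the higher in 6 features and line 45 in 7, and the distance was at most 0.60. Line by line, 7 of the 10 tested stalk features were at least 2-fold above wild type in line 41, against 12.7% of all tested features. In line 45 they were again 7 of 10, against 10.8%. These comparisons share the wild-type array. Of the 10, AT2G40010 and feature A of AT1G01100 passed the dim filter through the lines alone. Feature A of AT1G01100 is among the 7 in each line, so its own values admitted it to the count. Line 41 was the higher in AT3G09200, AT5G47700 and AT3G44590, and line 45 in AT2G27720 and both features of AT2G27710.

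Since the arrays differ at their bright end, the stalk changes were also computed under other scalings. All 7 called features passed the test under each of the 4 other scalings tried. AT2G40010, not called as deposited, passed under 3 of the 4. AT5G47700 had log2 changes of 3.12 to 3.38 under them, AT3G09200 of 1.53 to 1.83, and feature B of AT1G01100 of 1.96 to 2.14. Among the called P2 features, feature A of AT2G27710 had changes of 2.16 to 2.48, and the others moved further. AT2G27720 went from 2.29 as deposited to 1.82 after quantile normalization and 1.69 once the dependence of the change on mean signal was taken out, and feature B of AT2G27710 from 1.53 to 1.13 and 1.12. When the dim filter was dropped while the floor on low values was kept, limma made 0 calls over all features and so 0 among the stalk features, with 7332 features at an unadjusted p under 0.05. With neither filter nor floor, the same 7 stalk features passed.

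**Figure D3:**
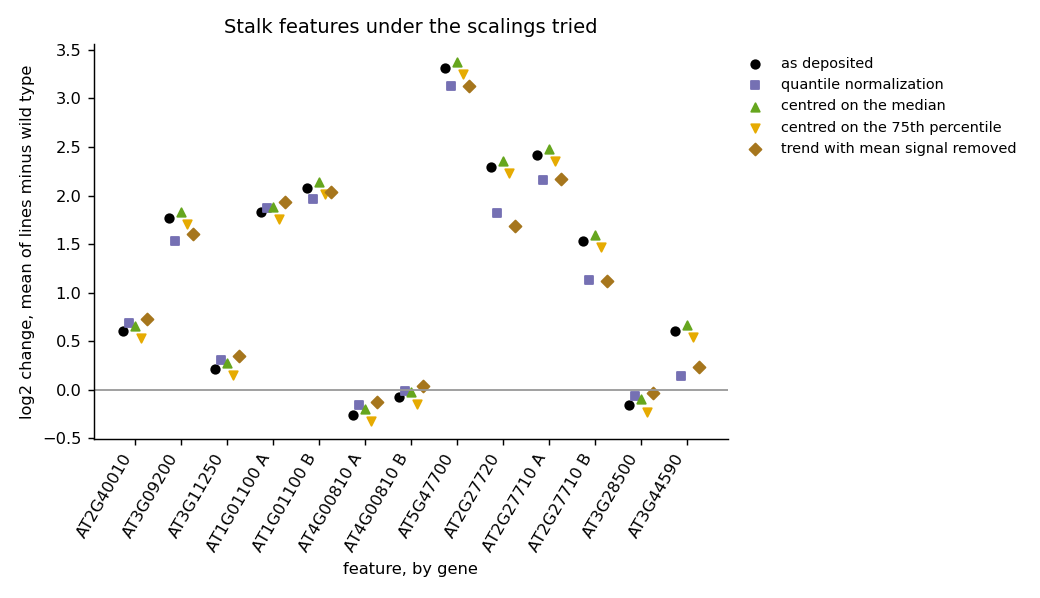
The log2 change (vertical axis, mean of 2 lines minus wild type, no error bars) of each stalk feature (horizontal axis) is shown for the values as deposited and under 4 other scalings, each with its own marker. The spread between scalings reaches from 1.69 to 2.35 in the P2 gene AT2G27720, and the 7 called features stay above 1 under every scaling.

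Genes of the same machinery outside the 10 loci were taken list by list. Among the further acidic proteins, 4 of 4 genes were tested and 1 passed, a share that with 4 features cannot be set apart from the 14.8% called higher over all. AT5G57290, a P3 gene, stood at 10.08 in wild type, against 11.27 in line 41 and 10.95 in line 45 and rose 2.04-fold (log2 change 1.03 ± 0.25, adjusted p = 0.0251 by limma). Its direction flipped with the scaling, to -0.067 after quantile normalization (adjusted p = 0.841) and -0.18 without the signal trend (adjusted p = 0.675). The median log2 change of these 4 features was 0.51.

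The stalk base is formed by the protein uL11, encoded by the RPL12 genes, which sits beside P0 on the ribosomal RNA. All 3 genes were tested and 2 rose, with a median log2 change of 1.80. Over all tested features 14.8% were called higher, and whether these 3 genes differ from that share was not tested. AT5G60670 did not pass (log2 change 0.62, adjusted p = 0.0805 by limma). AT2G37190 stood at 6.96 in wild type, against 9.04 in line 41 and 8.97 in line 45 and rose 4.13-fold (log2 change 2.05 ± 0.23, adjusted p = 0.000897 by limma). AT3G53430 stood at 8.19, 9.87 and 10.12 and rose 3.48-fold (log2 change 1.80 ± 0.24, adjusted p = 0.00201). In AT2G37190 and AT3G53430 the lines lay more than 1 unit above wild type and within 1 unit of each other.

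Of 11 genes for the GTPases that bind the stalk and for the recycling factor ABCE1, 7 were named here and 6 were tested. Of these 3 rose, all of them eEF1A genes, against 14.8% of all tested features called higher. Whether the list differs from that share was not tested. The fourth eEF1A gene, AT1G07940, did not pass (log2 change 0.38, adjusted p = 0.276 by limma). One of the 3, AT1G07930, passed the dim filter through the lines alone, and without it 2 of 5 rose. AT1G07920 stood at 7.37 in wild type, against 11.27 in line 41 and 11.07 in line 45 and rose 13.9-fold (adjusted p = 0.000321 by limma). AT5G60390 rose 2.91-fold (adjusted p = 0.00280 by limma). AT1G07930 was dim in wild type at 5.09, and the mean of its lines was 1.32-fold above the dim filter's level (adjusted p = 0.0260). The median log2 change of all 7 features was 0.65. Which part of each eEF1A gene the features match is not given, so signal shared among these genes cannot be told apart. No feature was named for the eEF2 genes.

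Casein kinase 2 phosphorylates the acidic stalk proteins. Of its 8 genes only AT2G23070 was named, which encodes a catalytic subunit known from the chloroplast. It stood at 5.39, 7.16 and 7.30, and the mean of the lines was 3.01-fold above the dim filter's level (adjusted p = 0.00110 by limma). The gene was under that level in wild type and came to be tested through the lines alone. The organelle ribosomes have stalk proteins of their own, L7/L12 and L10, and of 9 such genes 5 were named and 3 tested, with 0 passing. The 4 without a feature were AT5G13510 and the plastid L12 genes RPL12-A, RPL12-B and RPL12-C, so plastid L12 was not measured. With 3 features, and 14.8% called higher over all, that count says nothing about the organelle stalk. The 2 with the greatest change were AT1G70190, too dim to test at 5.35, 5.18 and 5.10, and AT4G37660 at 6.01, 6.12 and 6.28 (adjusted p = 0.571). AT1G25260, a relative of P0 that acts in ribosome assembly in yeast under the name MRT4, stood at 7.13, 7.37 and 7.16 and did not pass (adjusted p = 0.719).

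**Figure D4:**
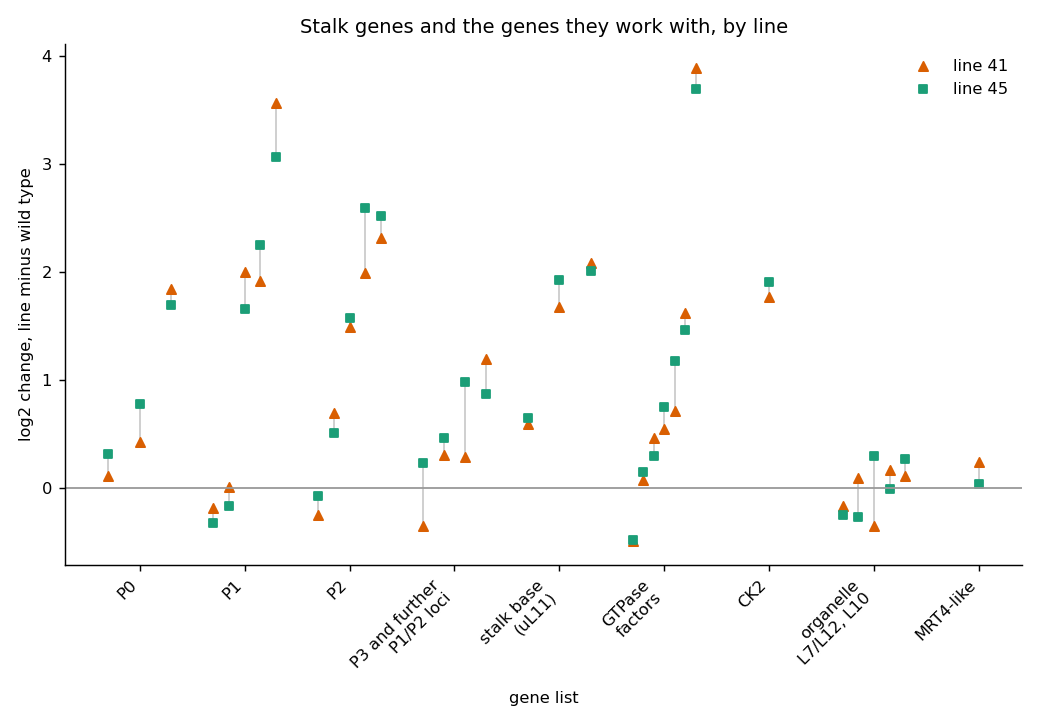
Each feature's log2 change from wild type (vertical axis) is drawn for line 41 (triangles) and line 45 (squares), joined by a line, for the P0, P1 and P2 genes and 6 lists of related genes (horizontal axis), with 1 array per line and no error bars. The P1, P2, stalk-base and GTPase lists hold features above 2 beside features under 1. The 5 features of the organelle list, 2 of them too dim to test, lie between -0.35 and 0.30.

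For the likeness of profile, each feature's 3 values were centred on their own mean and set against the median centred profile of the 10 tested stalk features, which lies 1.69 above wild type in line 41 and 1.73 in line 45. Among 9673 other named genes the nearest by Euclidean distance were AT2G17240 (distance 0.097), AT5G03850 (0.0985) and AT5G01750 (0.10). AT5G03850, which encodes the small-subunit protein S28 of the cytosolic ribosome, stood at 8.39 in wild type, against 10.06 in line 41 and 10.09 in line 45. With 3 arrays such a likeness says little more than that the lines lie at the same distance above wild type.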

How the data were processed

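Each feature has 1 value per array in the deposited table. The values were read as log2 expression from their range of 4.04 to 14.78, since the sources used here do not state the log base, platform, background correction or normalization by the authors. With another base every fold would change, but not the order. Medians lay within 0.1, so values were kept as deposited. Values under the 5th percentile (4.68) were raised to it. The 17271 features with a mean of at least 5.64, the 40th percentile of feature means, were tested, 1 test per feature. The test was limma 3.58.1 in R 4.3.3 (lmFit, eBayes with trend, two-sided, Benjamini-Hochberg over all tested features). It was also run on simulated data. There, apart from features changed on purpose, the wild-type array had the lines' own mean and spread, so a shift of that whole array was not checked. The fit has 1 residual degree of freedom. For a gene dim in wild type, the fold given is that of the mean of the lines over 5.64. It is a lower bound for the fold of that mean over wild type. Log2 changes and the counts of features past 2-fold use the wild-type value itself, after the floor. For arrays, their number limits the precision.

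Features were named through Entrez genes (17579 by 1 gene, 0 by several, 11206 unnamed here) and the RefSeq table of assembly TAIR10.1, used for names, chromosome and gene order. Named genes were all stalk features, and in each related list up to 4 that passed, largest change first, or else the 2 with the largest change, and the 3 nearest profiles. Some members that did not pass were named besides. The stalk genes and lists were chosen with earlier results of these data known. No pair of arrays held the same data, with at most 24 identical values. The alternatives tried were 4 other scalings, other dim filters and floors, 1 feature per gene, no trend in eBayes and each line left out.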

Additional observations from a re-analysis of the deposited data

Results flagged for a closer look

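Over the 34 stalk and related features named on the array, 5 lay above wild type in one line and below it in the other. Among the stalk features this was feature B of the P1 gene AT4G00810, which differed from wild type by 0.011 (log2) in line 41 and by -0.17 in line 45. The other 4 are related genes that did not pass the test or were too dim for it. AT5G40040, a further P2 locus, lay at -0.35 in line 41 and 0.23 in line 45. Of the genes for organelle L7/L12 and L10 proteins, AT3G06040 lay at -0.35 and 0.30, AT4G36420 at 0.17 and -0.014, and AT3G12370 at 0.090 and -0.27. These differences were not tested, since each line had 1 array.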

How the results depend on the processing

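Over all features limma called 3782, against 5406 after quantile normalization (2713 higher and 2693 lower, where the values as deposited gave 2555 and 1227), and 7 stalk features, against 5 to 8 under the other alternatives with one exception. Without the dim filter but with the floor kept, 0 features and 0 stalk features were called. In that setting the floor made the lines equal in 1094 features, against 12 among those tested otherwise, and the prior degrees of freedom fell to 1.42 from 6.68. With neither filter nor floor, a setting chosen after seeing the data, 4463 features and 7 stalk features were called. Leaving out a line leaves 1 array against 1, with no test; 2269 features without line 41 and 2752 without line 45 were then past 2-fold, and 7 stalk features in each case. The count of 0 stalk features 2-fold apart between the lines held under each of the 9 alternatives run on it. Only the 4 other scalings could have changed it. The other alternatives changed the dim filter or the floor, while all 13 features were counted and lay above the floors in both lines. The P3 gene AT5G57290 reversed to -0.067 after quantile normalization and to -0.18 without the signal trend; the cause was not tested. No paired analysis was possible because wild type had 1 array and shares no replicate number with the lines. Signal close to the dim filter limits what can be said of AT3G11250, AT3G28500, AT2G40010 and AT4G00810.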
